A study of Mus musculus with 12 samples.

Results

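Cholesterol and fatty acid synthesis genes were followed in primary cortical neuron cultures in which short hairpin RNAs (shRNAs) were used to lower an enzyme of RNA editing or Zfr, an RNA-binding protein. The set was a list of 30 genes chosen by symbol: enzymes of the mevalonate and sterol pathways, the SREBP regulators, a sterol carrier and enzymes of fatty acid synthesis. Of the 23955 genes in the deposited tables, 29 were list members, and all 29 were among the 14785 genes that passed the filter on low counts. Expression of Hmgcs1, which encodes the synthase that makes HMG-CoA, was not analysed here, and only its promoter sequence was read. The cultures came from C57BL/6J mouse embryos at stage E16.5, were infected with shRNA lentivirus made in the pGreenPuro backbone, and were harvested 7 days after dissection. Total RNA was depleted of ribosomal RNA before sequencing. There were 5 groups of 2 biological replicates: shAdar1 against Adar (the gene for ADAR1), shAdar2 against Adarb1 (the gene for ADAR2), shZfr against Zfr, and the control hairpins shControl2 and shControl1. The study set shAdar1 and shAdar2 against shControl1, and shZfr against shControl2; both controls were used here for each knockdown. Each target had 1 hairpin here, so an effect of a target and an effect of its hairpin cannot be told apart.

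Cholesterol is built from acetyl-CoA through mevalonate, farnesyl diphosphate, squalene and lanosterol, and the same precursors feed isoprenoids such as geranylgeranyl diphosphate. The genes of this pathway and of fatty acid synthesis are transcribed under the control of the SREBP factors, which SCAP carries out of the endoplasmic reticulum when sterols are scarce and which the INSIG proteins hold back when sterols are plentiful. The brain makes its own cholesterol, since plasma lipoproteins do not cross the blood-brain barrier, and astrocytes supply part of it to neurons.

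Libraries held 15800000 to 29700000 expected counts, and the 3 technical libraries of shAdar2 replicate 1 were summed to 82700000. Targets were left at 30.9% (Adar in shAdar1), 41.7% (Adarb1 in shAdar2) and 37.6% (Zfr in shZfr) of the study's control for each. The shZfr samples stood out as unusually alike: counts differed by a chi-square of 2.28 per degree of freedom, against 26.2 to 60.6 for other replicate libraries and 21.2 to 57.3 for libraries made from the same shAdar2 RNA. Of the 3 libraries of shAdar2 replicate 1, library 2 was the one furthest from the others. Neuron markers were present in every sample, at a summed 3604 to 8821 CPM (counts scaled by TMM to a common library size), and so were astrocyte markers, at 634 to 2689 CPM, which makes these mixed cultures. Microglial markers summed to at most 2.82 CPM, and endothelial, mural and fibroblast markers to at most 32.0 CPM. In such bulk RNA, fewer cells of a type and less RNA per cell cannot be told apart.

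Lipid synthesis transcripts were lowest in shAdar2 cultures. Their TPM values (counts scaled for gene length and library total) summed to 1679 and 2590 in shAdar2, against 5789 and 4119 in shAdar1, 3383 and 3369 in shZfr, 5520 and 5090 in shControl2, and 3468 and 3066 in shControl1. Both shAdar2 samples were thus below the other 8, and the control hairpins did not overlap with each other. By the edgeR quasi-likelihood test at a Benjamini-Hochberg adjusted p under 0.05, 14 members were lower in shAdar2 than in both control hairpins, where 15.9% of all tested genes were. These 14 spanned the pathway: Acat2, Idi1 and Fdps in the early steps, Fdft1 and Sqle around squalene, Cyp51, Nsdhl, Hsd17b7 and Sc5d after lanosterol, the regulator Insig1, the sterol carrier Stard4, and Fasn, Acaca and Elovl6 in fatty acid synthesis. A single member, Insig2, was higher than both, where 15.2% of all tested genes were. In 18 members both shAdar2 samples lay below the other 8 samples, as they did for 17.8% of all tested genes. The heat map shows these blocks.

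**Figure D1:**
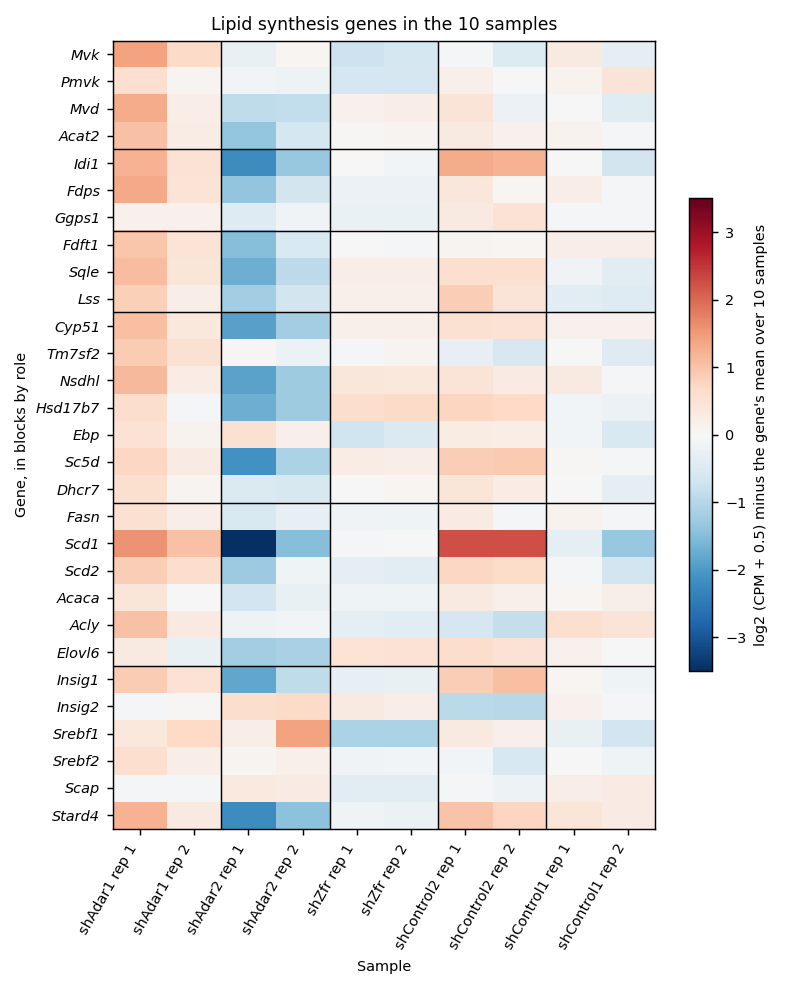
Level of each of the 29 genes in the 10 samples, as log2 (CPM + 0.5) minus that gene's mean over the samples (colour, blue below and red above the mean), with rows in blocks by role and columns in pairs of replicates. The shAdar2 columns are blue for most genes, with Insig2, Scap and Srebf1 among the exceptions, and the shControl2 columns are redder than the shControl1 columns for Idi1, Lss, Scd1 and Insig1.

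By comparison, 15 members were lower and 3 higher in shAdar2 than in shControl1, where 23.2% of all tested genes were lower and 23.2% higher. Against shControl2, 20 members were lower and 4 higher, where the shares over all genes were 27.3% and 32.2%. The median log2 fold change of the 29 members was −0.65 against shControl1 and −1.06 against shControl2, and the medians of all tested genes were 0.04 and 0.09. Of the 14 members that were lower than both, 9 kept both calls under every alternative run and whichever sample was left out: Idi1, Fdft1, Cyp51, Nsdhl, Hsd17b7, Sc5d, Insig1, Stard4 and Elovl6. Acat2 and Sqle lost the call against shControl1 without shControl1 replicate 1, and Fdps without shControl1 replicate 1 and without shAdar2 replicate 1. Each of the 14 was also below the 8 libraries of the other groups in each of the 4 single shAdar2 libraries. The 14 were chosen as lower in these same libraries, 3 of which came from the same RNA. This count is therefore no further evidence of a fall.

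Other transcripts moved in shAdar2 as well. All 13 tested members of a list of interferon-stimulated genes were higher than in each control, and their summed level was 142 to 432 CPM in shAdar2, against 9.88 to 20.4 CPM in the other groups. Astrocyte markers summed to 634 to 999 CPM in shAdar2, against 2238 to 2689 CPM in shControl2 and 711 to 1042 CPM in shControl1, so shAdar2 overlapped with shControl1 and lay under shControl2. By gene, 1 of 11 tested was higher and 7 lower than in shControl2, and 1 was higher and 0 lower than in shControl1. Neuron markers summed to 3604 to 3779 CPM in shAdar2, against 7526 to 8198 CPM in shControl2 and 5434 to 5775 CPM in shControl1. The neuron genes did not move as 1 block: of 13 tested, 3 were higher and 8 lower in shAdar2 than in shControl2, and 4 were higher and 5 lower than in shControl1. Map2 and Stmn2, a neuronal microtubule protein and a tubulin-binding protein, held most of the lower sum, with mean levels of 787 and 370.2 CPM in shAdar2, against 3454 and 1003 CPM in shControl2 and 1923 and 1101 CPM in shControl1. Higher than in shControl1 were Gad1, Gad2, Slc17a7 and Slc17a6, genes of GABA synthesis and glutamate loading. Of 9 proliferating progenitor genes, 6 were lower in shAdar2 than in shControl2, and 1 was lower and 1 higher than in shControl1. Of 8 oligodendrocyte lineage genes, 2 were lower than in shControl2, and 2 were higher than in shControl1. The shAdar2 replicates differed widely in both lists, at a summed 173 and 524 CPM for the progenitors and 104 and 356 CPM for the oligodendrocyte lineage, with replicate 2 the higher. Lipid genes differed too: 5 of the 29 members were higher in replicate 1, with a median difference (replicate 1 minus replicate 2) of −0.46 on the log2 scale. Of the astrocyte list, Gjb6 did not pass the filter on low counts. It was at 0 in both samples of each knockdown and at only 0.0769 to 0.0966 CPM in the control samples. The 3 technical libraries of replicate 1 gave 188, 51.6 and 186 CPM for the interferon list, and 2216, 2833 and 2286 CPM for the 29 members. The library with the lowest interferon level had the highest member level of the 3, while replicate 2 had the highest level of both (437 and 3596 CPM). The part of cell makeup or of the interferon-stimulated genes in the lipid gene levels was not tested.

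Promoter sequence is shown for a few of the genes that moved in shAdar2, to set out the letters at the start of genes whose transcripts moved together. RefSeq windows on GRCm38.p6, running from 250 bases before to 50 bases after a start site, were at hand for 24 of the 30 members. In the lines that follow, each 300 bases long and written 5′ to 3′ on the gene's strand, capitals mark the NF-Y box CCAAT or its reverse complement ATTGG, and the GC box GGGCGG or CCGCCC. The first 4 genes were lower in shAdar2 than in both controls, and Insig2, given at 1 of its 3 listed starts, was higher.
Idi1, chr13:8885356-8885655, plus strand: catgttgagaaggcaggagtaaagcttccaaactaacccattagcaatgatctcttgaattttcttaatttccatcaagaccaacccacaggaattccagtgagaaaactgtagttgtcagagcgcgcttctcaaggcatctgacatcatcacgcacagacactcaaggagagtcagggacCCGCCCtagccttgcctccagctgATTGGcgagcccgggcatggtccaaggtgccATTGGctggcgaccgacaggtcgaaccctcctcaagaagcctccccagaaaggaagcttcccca
Cyp51, chr5:4104648-4104947, minus strand: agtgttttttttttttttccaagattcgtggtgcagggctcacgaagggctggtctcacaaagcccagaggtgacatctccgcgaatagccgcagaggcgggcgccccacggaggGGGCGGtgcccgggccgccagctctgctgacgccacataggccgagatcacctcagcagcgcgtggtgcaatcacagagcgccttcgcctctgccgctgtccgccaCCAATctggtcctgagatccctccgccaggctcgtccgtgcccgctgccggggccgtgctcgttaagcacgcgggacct
Nsdhl, chrX:72918271-72918570, plus strand: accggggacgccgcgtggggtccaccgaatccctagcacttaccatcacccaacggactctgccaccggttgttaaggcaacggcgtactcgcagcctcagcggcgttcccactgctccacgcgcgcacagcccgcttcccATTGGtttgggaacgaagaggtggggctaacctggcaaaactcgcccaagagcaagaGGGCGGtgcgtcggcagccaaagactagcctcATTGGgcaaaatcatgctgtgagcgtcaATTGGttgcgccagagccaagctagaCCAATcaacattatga
Insig1, chr5:28071162-28071461, plus strand: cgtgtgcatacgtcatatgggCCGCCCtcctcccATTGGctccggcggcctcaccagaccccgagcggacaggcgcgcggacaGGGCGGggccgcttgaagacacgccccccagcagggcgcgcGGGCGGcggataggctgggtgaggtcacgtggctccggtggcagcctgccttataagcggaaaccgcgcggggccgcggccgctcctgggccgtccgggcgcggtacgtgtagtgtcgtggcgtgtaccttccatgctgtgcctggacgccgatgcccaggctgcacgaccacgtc
Insig2, chr1:121332540-121332839, minus strand: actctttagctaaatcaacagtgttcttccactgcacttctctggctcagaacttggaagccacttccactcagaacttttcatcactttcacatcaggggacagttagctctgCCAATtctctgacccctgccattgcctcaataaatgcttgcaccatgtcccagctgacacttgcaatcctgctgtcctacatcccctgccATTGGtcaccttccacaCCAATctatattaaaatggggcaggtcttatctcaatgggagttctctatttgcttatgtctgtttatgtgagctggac
CCAAT, read on both strands, was found in 20 of the 24 members, in 41.06% of the 27025 genes in the table and in 43.08% of the 10973 tested genes with a promoter there. Among the 10 members lower than both controls that had a window, 7 held it. GGGCGG, also on both strands, was in 19 of the 24 members and in 38.2% of all genes, but in 68.06% of the tested genes. A sterol regulatory element spelled TCACNCCAC was in 1 of the 24 members, Hmgcs1, and in 1.44% of all genes. A gene with several starts was counted once if any window held the letters, a match to 1 of the 3 words is never a match to another, and a match is a description of letters and not a binding site. In the printed windows a CCAAT box began 45 and 14 bases before the start of Idi1, 29 bases before that of Cyp51, and 109 and 20 bases before that of Nsdhl, where 2 more lay 8 and 34 bases after it. The box of Insig1 began 216 bases before its start, and those of Insig2 began 136, 46 and 29 bases before the printed start. The windows at the other listed starts of Insig2 held no CCAAT box, but each held a GC box, which the printed Insig2 window did not. In the printed windows, a CCAAT box within 50 bases of the start was thus found in some genes that were lower and in the one that was higher. This rests on the windows picked: the lower members Acat2, Acaca and Elovl6, whose windows held no CCAAT box, were not printed.

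The early enzymes lead from acetyl-CoA through mevalonate to isopentenyl diphosphate; 2 of the 4 measured were lower in shAdar2 than in shControl2, and 1 of the 4 was lower than in shControl1. Over all tested genes 27.3% and 23.2% were lower in these comparisons, so the share of this block against shControl1 was near that background, and the same shares apply to the blocks that follow. Acat2, the cytosolic thiolase that makes acetoacetyl-CoA, was at 308 and 183 CPM in shAdar1, 59.0 and 98.5 CPM in shAdar2, 155 and 163 CPM in shZfr, 191 and 169 CPM in shControl2 and 167 and 148 CPM in shControl1. Both shAdar2 samples lay below the other 8. Acat2 fell in shAdar2 relative to shControl2 (log2 fold change with its SE −1.20 ± 0.26, adjusted p = 0.00333 by edgeR) and relative to shControl1 (−1.01 ± 0.26, adjusted p = 0.0115). Mvk, mevalonate kinase, showed another pattern, at 40.1 and 24.0 CPM in shAdar1, 12.4 and 15.5 CPM in shAdar2, 8.80 and 9.65 CPM in shZfr, 14.1 and 10.6 CPM in shControl2 and 18.6 and 12.0 CPM in shControl1. Its shAdar1 samples were the highest, and its shZfr samples the lowest. Mvk rose in shAdar1 relative to shControl2 (1.37 ± 0.29, adjusted p = 0.00617 by edgeR) and shControl1 (1.07 ± 0.28, adjusted p = 0.0326), while shAdar2 overlapped with both controls. Pmvk, phosphomevalonate kinase, was at 54.3 and 38.0 CPM in shAdar1, 33.7 and 31.4 CPM in shAdar2, 23.6 and 23.6 CPM in shZfr, 40.3 and 35.8 CPM in shControl2 and 39.2 and 49.0 CPM in shControl1. The shZfr samples were below the other 8, and Pmvk fell in shZfr relative to shControl2 (−0.69 ± 0.18, adjusted p = 0.018 by edgeR) and shControl1 (−0.90 ± 0.18, adjusted p = 0.00291). Mvd, the decarboxylase that closes the mevalonate steps, averaged 17.2 ± 0.109 CPM in shAdar2, against 35.8 ± 11.6 CPM in shControl2 and 27.6 ± 5.47 CPM in shControl1 (SD, n = 2 each). It was lower than in shControl2 (−1.06 ± 0.33, adjusted p = 0.0191 by edgeR), a call lost without shControl2 replicate 1 and without shAdar2 replicate 1, and did not pass the test against shControl1 (−0.68 ± 0.33, adjusted p = 0.113).

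Isoprenoid synthesis begins with Idi1, the isomerase of isopentenyl diphosphate; all 3 genes of this block were lower in shAdar2 than in shControl2, and 2 of the 3 were lower than in shControl1. Idi1 was at 303 and 186 CPM in shAdar1, 27.8 and 51.3 CPM in shAdar2, 131 and 122 CPM in shZfr, 323 and 304 CPM in shControl2 and 131 and 83.4 CPM in shControl1. It had one of the widest ranges in the set: shAdar2 was lowest, shControl1 and shZfr lay close together, and shControl2 was as high as the higher shAdar1 sample. Against shControl2, shAdar2 kept 12.6% of the level (−3.01 ± 0.33, adjusted p = 6.82e-05 by edgeR), and against shControl1 it kept 36.9% (−1.46 ± 0.32, adjusted p = 0.00479). Fdps, farnesyl diphosphate synthase, was at 249 and 139 CPM in shAdar1, 37.7 and 63.0 CPM in shAdar2, 85.9 and 86.7 CPM in shZfr, 131 and 104 CPM in shControl2 and 116 and 95.5 CPM in shControl1. Here the controls overlapped and both shAdar2 samples were below the other 8. Fdps fell in shAdar2 relative to shControl2 (−1.23 ± 0.29, adjusted p = 0.00499 by edgeR) and to shControl1 (−1.09 ± 0.29, adjusted p = 0.0132). Ggps1, which makes the geranylgeranyl chain for protein prenylation and so leaves the sterol branch, moved less, at 56.8 and 55.8 CPM in shAdar1, 36.9 and 46.9 CPM in shAdar2, 42.8 and 43.0 CPM in shZfr, 63.3 and 72.4 CPM in shControl2 and 49.5 and 49.1 CPM in shControl1. It fell in shAdar2 relative to shControl2 (−0.70 ± 0.13, adjusted p = 0.00119 by edgeR) but did not pass the test against shControl1 (−0.24 ± 0.13, adjusted p = 0.148), and shControl2 was the higher control.

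The next enzymes make squalene, add its epoxide and close the ring to lanosterol; here too all 3 were lower in shAdar2 than in shControl2, and 2 of the 3 were lower than in shControl1. Fdft1, squalene synthase, was at 223 and 161 CPM in shAdar1, 40.4 and 78.3 CPM in shAdar2, 115 and 110.4 CPM in shZfr, 124 and 119 CPM in shControl2 and 135 and 135 CPM in shControl1. The controls differed little, and shAdar2 fell relative to shControl2 (−1.04 ± 0.26, adjusted p = 0.00639 by edgeR) and to shControl1 (−1.20 ± 0.26, adjusted p = 0.00468). Sqle, squalene epoxidase, was at 389 and 249 CPM in shAdar1, 56.5 and 98.0 CPM in shAdar2, 219 and 219 CPM in shZfr, 279 and 272 CPM in shControl2 and 168 and 140.4 CPM in shControl1. All 3 knockdowns differed in place: shAdar1 was high, shZfr lay between the controls, and shAdar2 was below the other 8 samples. Sqle fell in shAdar2 relative to shControl2 (−1.84 ± 0.26, adjusted p = 0.00028 by edgeR) and shControl1 (−1.01 ± 0.26, adjusted p = 0.0104). Lss, lanosterol synthase, was at 87.5 and 57.2 CPM in shAdar1, 20.9 and 31.1 CPM in shAdar2, 55.0 and 55.4 CPM in shZfr, 88.9 and 67.4 CPM in shControl2 and 36.8 and 35.5 CPM in shControl1. Both shAdar2 samples were again the lowest, but shControl1 was close to them, and the fall passed the test against shControl2 (−1.60 ± 0.24, adjusted p = 0.000349 by edgeR) and not against shControl1 (−0.49 ± 0.23, adjusted p = 0.111).

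**Figure D2:**
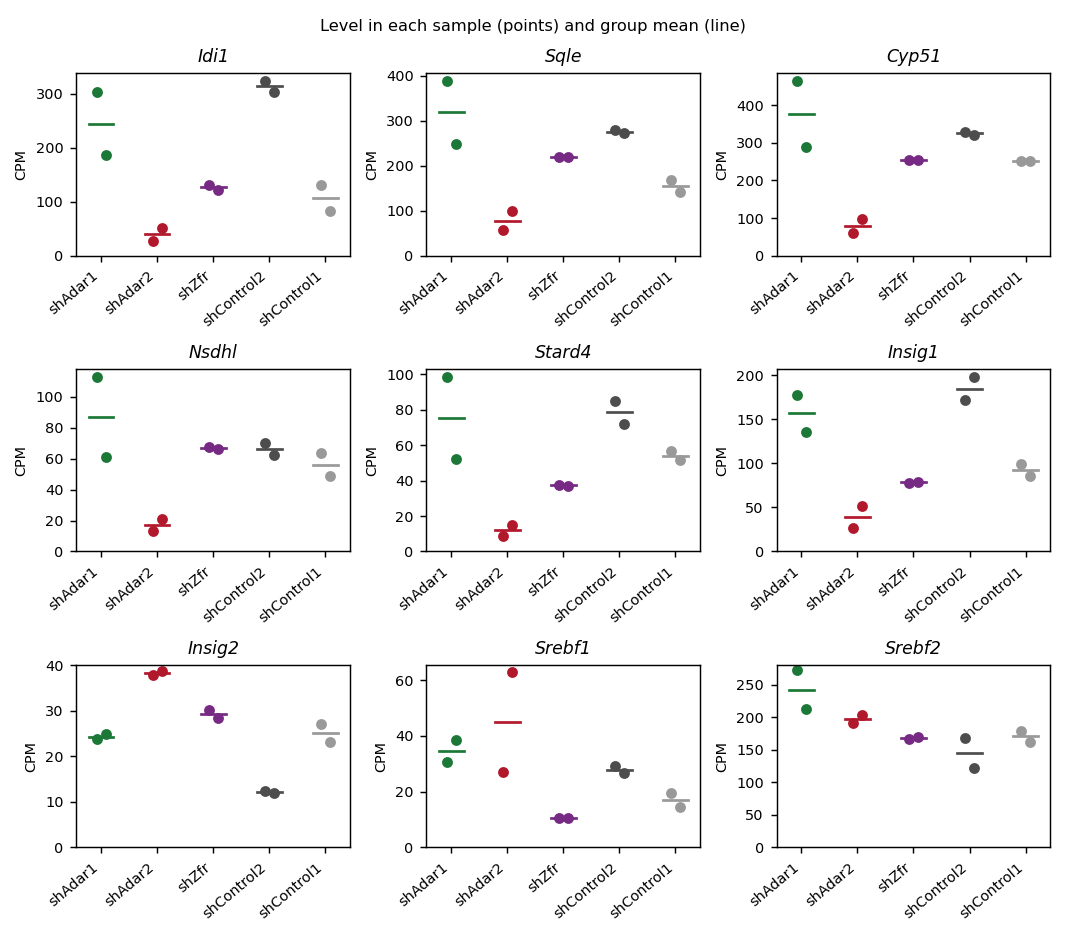
Level in CPM (linear axis from 0) of 9 genes in each sample (points), with the mean of the 2 samples of each group (line); panels show Idi1, Sqle, Cyp51, Nsdhl, Stard4, Insig1, Insig2, Srebf1 and Srebf2. The shAdar2 points are lowest in the first 6 panels and highest for Insig2, and the shControl2 and shControl1 points are apart for Idi1, Sqle, Insig1 and Insig2.

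After lanosterol, 7 enzymes of the list trim and reshape the sterol ring; 5 of the 7 were lower in shAdar2 than in shControl2, and 4 lower and 1 higher than in shControl1. Cyp51, the lanosterol demethylase, was at 466 and 290.1 CPM in shAdar1, 60.03 and 97.5 CPM in shAdar2, 255 and 255 CPM in shZfr, 329 and 322 CPM in shControl2 and 253 and 251 CPM in shControl1. Outside shAdar2 the samples lay close together, apart from a high shAdar1 replicate. Cyp51 in shAdar2 was at 24.2% of shControl2 (−2.05 ± 0.25, adjusted p = 0.000107 by edgeR) and 31.2% of shControl1 (−1.69 ± 0.24, adjusted p = 0.000582). Nsdhl, a dehydrogenase that acts in removing methyl groups from the ring, was at 113 and 61.1 CPM in shAdar1, 13.5 and 21.2 CPM in shAdar2, 67.7 and 66.2 CPM in shZfr, 70.0 and 62.3 CPM in shControl2 and 63.5 and 48.8 CPM in shControl1. The 2 controls overlapped, and shAdar2 was far below both. Nsdhl fell in shAdar2 relative to shControl2 (−1.96 ± 0.29, adjusted p = 0.00039 by edgeR) and shControl1 (−1.72 ± 0.29, adjusted p = 0.00136). Hsd17b7, the ketoreductase of the same reaction series, was at 98.6 and 61.0 CPM in shAdar1, 19.5 and 26.9 CPM in shAdar2, 99.4 and 102 CPM in shZfr, 109 and 105 CPM in shControl2 and 59.9 and 55.6 CPM in shControl1. In shZfr it was near shControl2 and above shControl1, while shAdar2 was the lowest. It fell in shAdar2 relative to shControl2 (−2.22 ± 0.22, adjusted p = 3.86e-05 by edgeR) and shControl1 (−1.33 ± 0.21, adjusted p = 0.00105).

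Sc5d, a sterol desaturase, was at 114 and 85.5 CPM in shAdar1, 15.8 and 32.1 CPM in shAdar2, 82.9 and 81.7 CPM in shZfr, 126 and 131 CPM in shControl2 and 71.7 and 66.0 CPM in shControl1. Replicate 1 of shAdar2 was lower than replicate 2, as for most members of the set, and both were under the other 8 samples. Sc5d fell in shAdar2 relative to shControl2 (−2.45 ± 0.28, adjusted p = 7.97e-05 by edgeR) and shControl1 (−1.55 ± 0.27, adjusted p = 0.0016). Dhcr7, the reductase of a last step to cholesterol, was at 98.2 and 70.2 CPM in shAdar1, 46.4 and 44.5 CPM in shAdar2, 65.7 and 69.0 CPM in shZfr, 88.9 and 78.5 CPM in shControl2 and 66.1 and 52.9 CPM in shControl1. Its fall in shAdar2 was smaller and passed the test relative to shControl2 (−0.88 ± 0.17, adjusted p = 0.00141 by edgeR) and not relative to shControl1 (−0.39 ± 0.17, adjusted p = 0.0789). Tm7sf2, a sterol reductase, did not join these falls, at 21.4 and 16.6 CPM in shAdar1, 11.6 and 9.65 CPM in shAdar2, 11.05 and 12.2 CPM in shZfr, 9.16 and 7.49 CPM in shControl2 and 11.2 and 8.08 CPM in shControl1. Its shAdar1 samples were above the other 8, and it rose in shAdar1 relative to shControl2 (1.19 ± 0.22, adjusted p = 0.00336 by edgeR) and shControl1 (0.98 ± 0.21, adjusted p = 0.0156). Ebp, a sterol isomerase with low counts, averaged 6.46 ± 1.27 CPM in shAdar2, against 3.89 ± 0.907 CPM in shControl1 (SD, n = 2 each), and was the 1 post-squalene member that was higher there (0.75 ± 0.26, adjusted p = 0.0385 by edgeR). That call was lost without shControl1 replicate 2 and without shAdar2 replicate 1. The transcript of Cyp51 overlaps that of Akap9 on the other strand, as Fdft1 does with Ctsb, Lss with 4930483K19Rik and Srebf1 with Rai1, while Tm7sf2 overlaps Vps51, and Scd2 overlaps Mir5114, on the same strand; no source used here says whether counting used strand, so reads in these overlaps cannot be assigned with certainty.

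The 5 regulators and the sterol carrier Stard4 did not move as 1 block in shAdar2. Of the regulators, 3 were higher and 1 lower than in shControl2, and 2 were higher and 1 lower than in shControl1, where 32.2% and 23.2% of all tested genes were higher; Stard4 was lower than in both. Insig1, an SREBP-induced anchor that holds the SCAP complex in the endoplasmic reticulum, was at 178 and 136 CPM in shAdar1, 26.9 and 51.7 CPM in shAdar2, 78.2 and 78.8 CPM in shZfr, 172 and 198 CPM in shControl2 and 99.3 and 86.0 CPM in shControl1. The shAdar2 samples were the lowest and the shControl2 samples among the highest. Insig1 fell in shAdar2 relative to shControl2 (−2.26 ± 0.27, adjusted p = 9.61e-05 by edgeR) and shControl1 (−1.26 ± 0.26, adjusted p = 0.00358). Insig2, the second anchor, which is regulated differently from Insig1, went the other way, at 23.7 and 24.9 CPM in shAdar1, 37.7 and 38.7 CPM in shAdar2, 30.3 and 28.5 CPM in shZfr, 12.3 and 12.1 CPM in shControl2 and 27.0 and 23.2 CPM in shControl1. Both shAdar2 samples were above the other 8, and the shControl2 samples were below the other 8. Insig2 rose in shAdar2 relative to shControl2, to 314% of its level (1.65 ± 0.13, adjusted p = 1.15e-05 by edgeR), and relative to shControl1, to 152% (0.61 ± 0.12, adjusted p = 0.00325). Both calls were kept under every alternative run. Stard4, a soluble carrier that moves sterol between membranes, was at 98.5 and 52.3 CPM in shAdar1, 8.87 and 15.2 CPM in shAdar2, 37.7 and 36.9 CPM in shZfr, 85.1 and 72.0 CPM in shControl2 and 57.0 and 51.5 CPM in shControl1. It had the deepest fall against shControl1 of any of the 14, to 22.2% (−2.21 ± 0.31, adjusted p = 0.00048 by edgeR), and was at 15.3% of shControl2 (−2.75 ± 0.31, adjusted p = 8.18e-05).

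Srebf1, which encodes SREBP1, was at 30.5 and 38.4 CPM in shAdar1, 27.1 and 62.8 CPM in shAdar2, 10.6 and 10.6 CPM in shZfr, 29.2 and 26.6 CPM in shControl2 and 19.4 and 14.5 CPM in shControl1. Its shAdar2 replicates lay far apart, and its shZfr samples were the lowest of all. Srebf1 was higher in shAdar2 than in shControl1 (1.39 ± 0.33, adjusted p = 0.00718 by edgeR), a call lost without shControl1 replicate 2, and it overlapped with shControl2 (0.68 ± 0.32, adjusted p = 0.0967). Srebf2, which encodes SREBP2, the main driver of the sterol genes, was at 272 and 212 CPM in shAdar1, 192 and 203 CPM in shAdar2, 166 and 169.9 CPM in shZfr, 168 and 122 CPM in shControl2 and 179 and 162 CPM in shControl1. The shAdar1 samples were the highest, and shAdar2 also lay above both controls. The difference passed the test relative to shControl2 (0.44 ± 0.16, adjusted p = 0.0364 by edgeR), where it was lost without shControl2 replicate 2 and without either shAdar2 replicate, and not relative to shControl1 (0.21 ± 0.16, adjusted p = 0.302). Scap, the escort of the SREBP factors, was at 71.3 and 72.4 CPM in shAdar1, 94.6 and 90.3 CPM in shAdar2, 57.0 and 56.1 CPM in shZfr, 71.9 and 65.7 CPM in shControl2 and 87.4 and 90.3 CPM in shControl1. It was higher in shAdar2 than in shControl2 (0.43 ± 0.09, adjusted p = 0.00286 by edgeR) and did not pass the test against shControl1 (0.06 ± 0.09, adjusted p = 0.621). Transcript levels of these regulators do not report how much SREBP protein was processed.

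**Figure D3:**
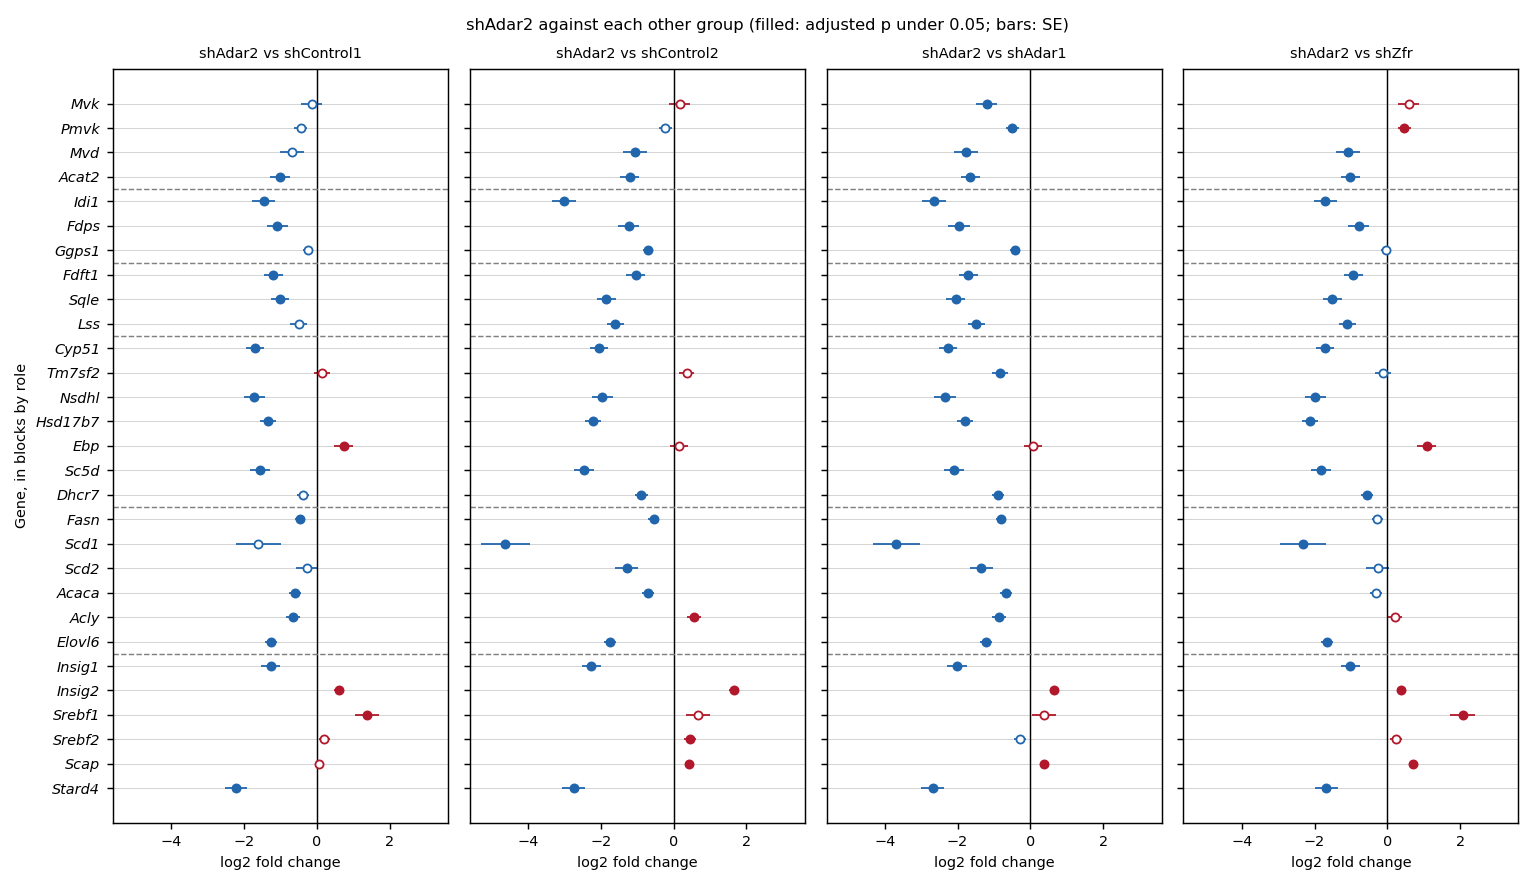
Log2 fold change of each gene in shAdar2 relative to shControl1, shControl2, shAdar1 and shZfr in 4 panels (linear axis, points with SE bars; filled points passed an adjusted p under 0.05, red above and blue below 0), with rows in blocks by role. Acat2, Idi1, Fdps, Fdft1, Sqle, Cyp51, Nsdhl, Hsd17b7, Sc5d, Insig1, Stard4 and Elovl6 are filled blue points in all 4 panels, and Insig2 is a filled red point in each; the other genes differ between panels.

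In fatty acid synthesis, 5 of 6 members were lower and 1 higher in shAdar2 than in shControl2, and 4 of the 6 were lower than in shControl1. Acly, which makes cytosolic acetyl-CoA from citrate, was at 449.8 and 276 CPM in shAdar1, 195 and 205 CPM in shAdar2, 176 and 171 CPM in shZfr, 148 and 124 CPM in shControl2 and 326 and 302 CPM in shControl1. The controls stood on either side of shAdar2, which was higher than shControl2 (0.56 ± 0.19, adjusted p = 0.0309 by edgeR) and lower than shControl1 (−0.65 ± 0.19, adjusted p = 0.0202), so no direction against both controls can be given. The first call was lost whichever of the 4 samples was left out, and the second without either shControl1 replicate and without shAdar2 replicate 1. Acaca, acetyl-CoA carboxylase, was at 406 and 303 CPM in shAdar1, 189 and 254 CPM in shAdar2, 274 and 273 CPM in shZfr, 377 and 339 CPM in shControl2 and 318 and 349.9 CPM in shControl1. It fell in shAdar2 relative to shControl2 (−0.70 ± 0.17, adjusted p = 0.00555 by edgeR) and shControl1 (−0.60 ± 0.17, adjusted p = 0.0165). Fasn, fatty acid synthase, was at 842 and 689 CPM in shAdar1, 399.5 and 475 CPM in shAdar2, 537 and 524 CPM in shZfr, 708 and 566 CPM in shControl2 and 633 and 571 CPM in shControl1. Both shAdar2 samples were below the other 8, with a fall relative to shControl2 (−0.54 ± 0.15, adjusted p = 0.0103 by edgeR) and shControl1 (−0.46 ± 0.15, adjusted p = 0.0292). Against shControl1 the Fasn call was lost without either control replicate and without shAdar2 replicate 1, against shControl2 it was lost without shControl2 replicate 1 and without shAdar2 replicate 1, and the Acaca call was lost against shControl1 without shControl1 replicate 2 and without shAdar2 replicate 1.

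Elovl6, which elongates saturated and monounsaturated chains, was at 224 and 150.2 CPM in shAdar1, 76.8 and 82.4 CPM in shAdar2, 250.2 and 255 CPM in shZfr, 278 and 256 CPM in shControl2 and 201 and 182 CPM in shControl1. Its 2 shAdar2 samples were close to each other and well under the other 8. Elovl6 fell in shAdar2 relative to shControl2 (−1.75 ± 0.17, adjusted p = 3.20e-05 by edgeR) and shControl1 (−1.27 ± 0.16, adjusted p = 0.00032). The stearoyl-CoA desaturases, which put in the double bond of oleate, included the member with the widest range of CPM as a ratio of highest to lowest sample, Scd1. Scd1 was at 284 and 196 CPM in shAdar1, 6.14 and 33.5 CPM in shAdar2, 91.0 and 95.3 CPM in shZfr, 455 and 463 CPM in shControl2 and 76.3 and 37.8 CPM in shControl1. The shControl2 samples were above all others, and the shAdar2 samples were the lowest and far from each other. Scd1 fell in shAdar2 to 4.32% of shControl2 (−4.62 ± 0.68, adjusted p = 0.000346 by edgeR) and did not pass the test against shControl1 (−1.61 ± 0.62, adjusted p = 0.0566). Scd2, an abundant desaturase of mouse brain, was at 2581 and 2179 CPM in shAdar1, 595 and 1272 CPM in shAdar2, 1144 and 1105 CPM in shZfr, 2337 and 2229 CPM in shControl2 and 1355 and 900.4 CPM in shControl1. Per length it was the most abundant member, at 512 ± 275 TPM in shAdar2, against 1325 ± 47.8 TPM in shControl2 and 592 ± 150.5 TPM in shControl1 (SD, n = 2 each). It fell in shAdar2 relative to shControl2 (−1.29 ± 0.31, adjusted p = 0.00535 by edgeR) and overlapped with shControl1 (−0.27 ± 0.30, adjusted p = 0.484).

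The difference between knockdowns was tested directly. Relative to shAdar1, 24 members were lower and 2 higher in shAdar2, where 21.0% of all tested genes were lower and 17.0% higher, and the members' median was −1.35 beside 0.01 for all tested genes. Relative to shZfr, 16 were lower and 5 higher, where the shares over all genes were 28.6% and 31.8%, with a median of −0.79 beside 0.10. Cyp51 was lower in shAdar2 than in shAdar1 (−2.27 ± 0.25, adjusted p = 0.000209 by edgeR) and than in shZfr (−1.70 ± 0.24, adjusted p = 0.000265). Stard4 was likewise lower than in shAdar1 (−2.69 ± 0.31, adjusted p = 0.000298 by edgeR) and shZfr (−1.67 ± 0.31, adjusted p = 0.00119), as was Nsdhl (−2.35 ± 0.30, adjusted p = 0.000443 and −1.97 ± 0.29, adjusted p = 0.000339). Insig2 was higher in shAdar2 than in shAdar1 (0.65 ± 0.12, adjusted p = 0.00315 by edgeR) and shZfr (0.38 ± 0.12, adjusted p = 0.0225), though the call against shZfr was lost without shAdar2 replicate 2 and without either shZfr replicate. Scap was higher in shAdar2 than in both, by 0.36 ± 0.09 and 0.71 ± 0.09, and lost the first of these calls without either shAdar1 replicate. Acaca, Fasn and Scd2 separated shAdar2 from shAdar1 (−0.68 ± 0.17, −0.81 ± 0.15 and −1.35 ± 0.31) but did not pass the test against shZfr (−0.31 ± 0.17, −0.28 ± 0.15 and −0.27 ± 0.30). The call of Acaca against shAdar1 was lost without shAdar1 replicate 1.

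The control hairpins differed from each other at about the size of many knockdown effects. In shControl2, 11 members were higher and 3 lower than in shControl1, where 19.9% of all tested genes were higher and 23.2% lower, and the members' median was 0.38 beside −0.05. Higher were Idi1 (1.55 ± 0.31, adjusted p = 0.00342 by edgeR), Lss (1.11 ± 0.23, adjusted p = 0.00412) and Scd1 (3.01 ± 0.62, adjusted p = 0.00391), which kept the call whichever of the 4 control samples was left out, and Sqle, Hsd17b7, Sc5d, Dhcr7, Insig1, Ggps1, Scd2 and Elovl6, which did not. Lower were Acly (−1.21 ± 0.19, adjusted p = 0.00106 by edgeR), Insig2 (−1.04 ± 0.13, adjusted p = 0.000235) and Scap (−0.37 ± 0.09, adjusted p = 0.00965), of which Scap lost the call without shControl2 replicate 2. Markers of several cell types moved with this difference. Higher in shControl2 were 9 of 11 astrocyte genes, 5 of 8 oligodendrocyte lineage genes, 6 of 9 proliferating progenitor genes and 8 of 13 neuron genes, and of these lists only 1 gene, a neuron gene, was lower. Summed levels were 457 to 460.3 CPM in shControl2, against 86.8 to 133 CPM in shControl1, for the oligodendrocyte lineage, and 635 to 682 CPM in shControl2, against 248 to 298 CPM in shControl1, for the progenitors. Their part in the lipid gene difference was not tested. Leaving out 1 sample, the count of called members was 10 without shControl1 replicate 1, 6 without shControl1 replicate 2, 9 without shControl2 replicate 1 and 6 without shControl2 replicate 2, against 14 with all samples.

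In shAdar1 cultures, several sterol enzymes were higher than in shControl1, and few were apart from shControl2. Relative to shControl1, 8 members were higher and 1 lower, where 9.33% of all tested genes were higher and 6.90% lower; the median was 0.58 beside 0.02. Besides Mvk and Tm7sf2, those higher were Mvd (1.08 ± 0.32, adjusted p = 0.0492 by edgeR), Idi1 (1.19 ± 0.31, adjusted p = 0.0305), Sqle (1.05 ± 0.26, adjusted p = 0.0239), Lss (1.00 ± 0.23, adjusted p = 0.0194), Scd1 (2.07 ± 0.60, adjusted p = 0.0451) and Scd2 (1.08 ± 0.31, adjusted p = 0.0425), and Scap was lower (−0.31 ± 0.09, adjusted p = 0.0484). Relative to shControl2, 5 were higher and 1 lower, where the shares were 19.3% and 13.9%, with a median of 0.21 beside 0.03. These were Mvk, Tm7sf2, Acly (1.42 ± 0.20, adjusted p = 0.000884 by edgeR), Insig2 (1.00 ± 0.13, adjusted p = 0.000623) and Srebf2 (0.74 ± 0.16, adjusted p = 0.00725), with Elovl6 lower (−0.51 ± 0.16, adjusted p = 0.0349). Acly and Insig2 kept the call whichever sample was left out. Mvk and Tm7sf2 were thus the 2 members higher than both controls, where 1.85% of all tested genes were. None was lower than both by edgeR, by DESeq2 or at an unadjusted p under 0.05 (0 members each), where 1.99% of all tested genes were by edgeR.

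The shAdar1 replicates differed, with 26 of the 29 members higher in replicate 1 and a median difference of 0.51 on the log2 scale. The controls leaned the same way by less, with 26 members higher in replicate 1 of shControl1 (median 0.17) and 25 in shControl2 (median 0.13). Against shControl1 the count of called members was 9 with all samples, 3 without shControl1 replicate 1, 0 without shControl1 replicate 2, 0 without shAdar1 replicate 1 and 12 without shAdar1 replicate 2. Against shControl2 it was 6 with all samples and 2 without shControl2 replicate 2. Mvk and Tm7sf2 lost a call against shControl1 without shControl1 replicate 2 and without shAdar1 replicate 1, and against shControl2 without shControl2 replicate 2; Mvk also without shAdar1 replicate 1. Astrocyte markers summed to 1255 to 1849 CPM in shAdar1, against 2238 to 2689 CPM in shControl2 and 711 to 1042 CPM in shControl1; 5 of 11 were higher than in shControl1, and 3 were lower than in shControl2. Neuron genes were higher than in shControl1 for 5 of 13, and lower than in shControl2 for 6 and higher for 1. The part of these markers was not tested.

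**Figure D4:**
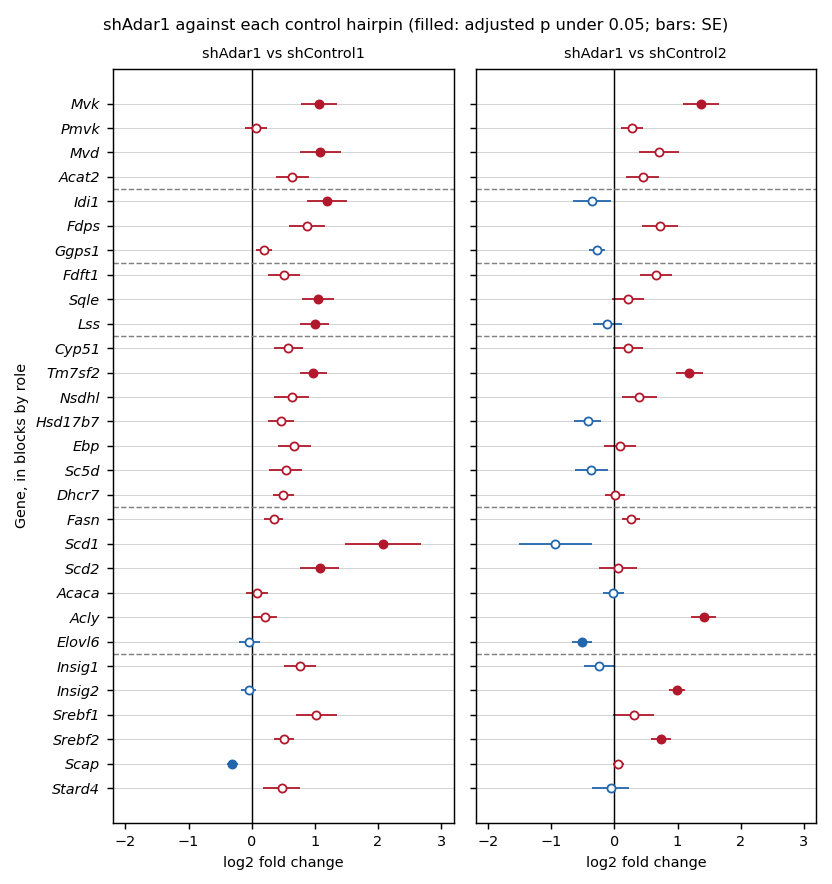
Log2 fold change of each gene in shAdar1 relative to shControl1 (left) and shControl2 (right), with SE bars and rows in blocks by role; filled points passed an adjusted p under 0.05. Most points on the left are above 0, and Mvk and Tm7sf2 are the genes with a filled red point in both panels.

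In shZfr cultures the outcome for lipid genes depended on the control. Relative to shControl2, the study's control for this hairpin, 10 members were lower and 1 higher, where 14.1% of all tested genes were lower and 16.7% higher, with a median of −0.35 beside 0.05. Relative to shControl1, 3 were lower and 1 higher, where the shares were 23.4% and 22.8%, with medians of −0.00 for the members and −0.03 for all tested genes. Pmvk and Scap were lower than both controls, as 7.85% of all tested genes were. None was higher than both by edgeR, by DESeq2 or at an unadjusted p under 0.05 (0 members each), where 7.95% of all tested genes were by edgeR. Scap fell relative to shControl2 (−0.28 ± 0.09, adjusted p = 0.0425 by edgeR) and shControl1 (−0.65 ± 0.09, adjusted p = 0.000433), and its 2 shZfr samples lay below the other 8. The calls of Pmvk and Scap against shControl2 were lost whichever of those 4 samples was left out, and those against shControl1 were kept.

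Beside these, shZfr was lower than shControl2 for Idi1 (−1.31 ± 0.31, adjusted p = 0.0116 by edgeR), Insig1 (−1.24 ± 0.26, adjusted p = 0.00615), Srebf1 (−1.39 ± 0.34, adjusted p = 0.013), Stard4 (−1.07 ± 0.29, adjusted p = 0.0216), Ggps1 (−0.66 ± 0.13, adjusted p = 0.00456), Ebp (−0.93 ± 0.27, adjusted p = 0.027), Scd1 (−2.30 ± 0.61, adjusted p = 0.0181) and Scd2 (−1.02 ± 0.31, adjusted p = 0.0316), and higher for Insig2 (1.27 ± 0.13, adjusted p = 0.000171). Against shControl1 the same genes gave 0.24 ± 0.31 for Idi1, −0.24 ± 0.25 for Insig1, −0.68 ± 0.34 for Srebf1, −0.54 ± 0.29 for Stard4 and 0.23 ± 0.12 for Insig2, none of which passed the test. Acly was lower than in shControl1 (−0.86 ± 0.19, adjusted p = 0.00549 by edgeR) and Hsd17b7 higher (0.80 ± 0.21, adjusted p = 0.0114), which was lost without shControl1 replicate 2 and without shZfr replicate 2. Insig1, Ggps1 and Insig2 kept their calls against shControl2 whichever sample was left out. Without shControl2 replicate 1, without shZfr replicate 1 or without shZfr replicate 2 the count against shControl2 was 3, and without shControl2 replicate 2 it was 5, against 11 with all samples. Taking the 2 shZfr samples as 1, since they were so alike, also left 3, and Pmvk and Scap then no longer passed the test against shControl2. Astrocyte markers summed to 940 to 993 CPM in shZfr, below the 2238 to 2689 CPM of shControl2 and within the 711 to 1042 CPM of shControl1. By gene, 1 of 11 tested was higher and 6 lower than in shControl2, and 4 were higher and 1 lower than in shControl1. Proliferating progenitor markers summed to 1186 to 1268 CPM in shZfr, against 635 to 682 CPM in shControl2 and 248 to 298 CPM in shControl1, with 2 of 9 higher than in shControl2 and 8 of 9 higher than in shControl1. Oligodendrocyte lineage markers summed to 272 to 316 CPM in shZfr, against 457 to 460.3 CPM in shControl2 and 86.8 to 133 CPM in shControl1, with 2 of 8 lower than in shControl2 and 4 of 8 higher than in shControl1. Neuron genes were higher for 2 and lower for 2 of 13 than in shControl2, and higher for 5 and lower for 1 than in shControl1. The part of these markers was not tested.

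**Figure D5:**
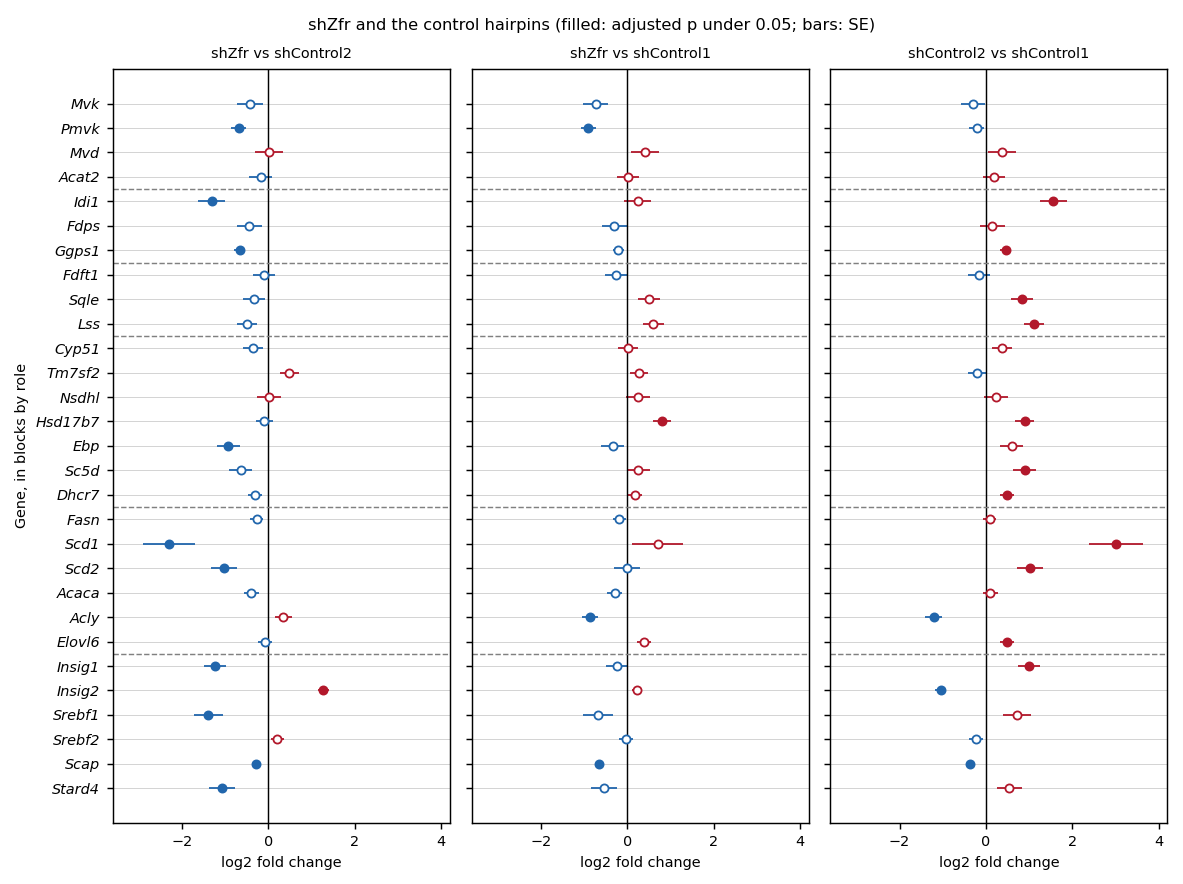
Log2 fold change of each gene in shZfr relative to shControl2 (left) and shControl1 (middle), and in shControl2 relative to shControl1 (right), with SE bars and rows in blocks by role; filled points passed an adjusted p under 0.05. Pmvk and Scap are filled blue in the left and middle panels, and Idi1, Insig1 and Scd1 are blue on the left and red on the right.

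Neighbouring pathway genes, listed by function, were read in the same fit, and the shares of all tested genes past both controls are those given above. Of 14 further genes of the mevalonate branch, 3 were higher and 2 lower in shAdar2 than in both controls, and 2 were higher in shZfr than in both. Their median log2 fold change in shAdar2 was −0.02 relative to shControl2 and −0.24 relative to shControl1, where all tested genes had 0.09 and 0.04. Msmo1, the sterol methyl oxidase that works with Nsdhl, was at 204 and 142 CPM in shAdar1, 22.1 and 49.9 CPM in shAdar2, 151 and 149 CPM in shZfr, 151 and 128 CPM in shControl2 and 125 and 95.6 CPM in shControl1. Msmo1 fell in shAdar2 relative to shControl2 (−1.98 ± 0.33, adjusted p = 0.000698 by edgeR) and shControl1 (−1.64 ± 0.33, adjusted p = 0.00309). Fntb, a farnesyltransferase subunit, rose in shAdar2 relative to shControl2 (0.99 ± 0.16, adjusted p = 0.000585 by edgeR) and shControl1 (0.80 ± 0.16, adjusted p = 0.00301). Pggt1b, a subunit of an enzyme that attaches geranylgeranyl chains to proteins, rose in shZfr relative to shControl2 (0.59 ± 0.12, adjusted p = 0.00506 by edgeR) and shControl1 (1.66 ± 0.12, adjusted p = 1.91e-05), as did Pdss1 of ubiquinone side chain synthesis (0.69 ± 0.18, adjusted p = 0.0179 and 1.38 ± 0.18, adjusted p = 0.000305).

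Of 22 further fatty acid genes, 3 were higher and 5 lower in shAdar2 than in both controls, 1 was higher and 1 lower in shAdar1, and 2 were higher and 2 lower in shZfr. The median in shAdar2 was −0.60 relative to shControl2 and 0.34 relative to shControl1. Acsl3, an acyl-CoA synthetase, was at 215 and 148 CPM in shAdar1, 51.7 and 80.5 CPM in shAdar2, 162 and 161 CPM in shZfr, 193 and 203 CPM in shControl2 and 164 and 134 CPM in shControl1. Acsl3 fell in shAdar2 relative to shControl2 (−1.59 ± 0.22, adjusted p = 0.000258 by edgeR) and shControl1 (−1.18 ± 0.22, adjusted p = 0.00219), and so did its relative Acsl1 (−1.69 ± 0.28, adjusted p = 0.000649 and −1.35 ± 0.28, adjusted p = 0.00339). Acsl1 fell in shZfr as well (−1.70 ± 0.28, adjusted p = 0.00205 relative to shControl2 and −1.36 ± 0.28, adjusted p = 0.00343 relative to shControl1, by edgeR). Elovl5, which elongates polyunsaturated chains, fell in shAdar2 (−0.68 ± 0.10, adjusted p = 0.000435 relative to shControl2 and −0.58 ± 0.10, adjusted p = 0.00182 relative to shControl1, by edgeR) and in shAdar1 (−0.67 ± 0.10, adjusted p = 0.0016 and −0.57 ± 0.10, adjusted p = 0.0076). Slc25a1 rose relative to shControl2 and shControl1 in shAdar1 (0.89 ± 0.19, adjusted p = 0.00596 and 0.86 ± 0.18, adjusted p = 0.0147 by edgeR). It also rose relative to both in shAdar2 (0.79 ± 0.19, adjusted p = 0.00475 and 0.75 ± 0.18, adjusted p = 0.00861 by edgeR). The same held in shZfr (0.89 ± 0.19, adjusted p = 0.0064 and 0.85 ± 0.19, adjusted p = 0.00457 by edgeR).

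Of 14 genes that regulate SREBP, 3 were higher and 5 lower in shAdar2 than in both controls, and 2 lower in shZfr; the median in shAdar2 was −0.04 relative to shControl2 and 0.18 relative to shControl1. Mbtps1 and Mbtps2 encode the proteases that cut SREBP free in the Golgi. Mbtps1 was higher in shAdar2 (0.46 ± 0.10, adjusted p = 0.00295 relative to shControl2 and 0.48 ± 0.10, adjusted p = 0.00348 relative to shControl1, by edgeR) and Mbtps2 lower (−1.38 ± 0.14, adjusted p = 4.39e-05 and −0.72 ± 0.14, adjusted p = 0.00255). Prkaa2, a catalytic subunit of the AMP-activated kinase, was at 195 and 147 CPM in shAdar1, 66.1 and 61.8 CPM in shAdar2, 338 and 340.4 CPM in shZfr, 251 and 264 CPM in shControl2 and 165 and 215 CPM in shControl1, with shAdar2 the lowest group. Prkaa2 fell in shAdar2 relative to shControl2 (−2.01 ± 0.16, adjusted p = 1.30e-05 by edgeR) and shControl1 (−1.57 ± 0.16, adjusted p = 9.21e-05). Syvn1, a ubiquitin ligase of the endoplasmic reticulum, rose in shAdar2 (1.12 ± 0.15, adjusted p = 0.000173 relative to shControl2 and 0.98 ± 0.14, adjusted p = 0.000661 relative to shControl1, by edgeR).

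Sterol transport and turnover genes did not share the direction of the synthesis genes: of 17 tested, 5 were higher and 2 lower in shAdar2 than in both controls, and 1 was higher and 4 lower in shZfr. The median in shAdar2 was 0.27 relative to shControl2 and 0.23 relative to shControl1. Abcg1, a cholesterol exporter, was at 24.0 and 19.98 CPM in shAdar1, 62.4 and 70.3 CPM in shAdar2, 26.8 and 27.3 CPM in shZfr, 18.5 and 17.8 CPM in shControl2 and 17.1 and 19.4 CPM in shControl1. Both shAdar2 samples were above the other 8. Abcg1 rose in shAdar2 relative to shControl2 (1.87 ± 0.14, adjusted p = 9.69e-06 by edgeR) and shControl1 (1.86 ± 0.14, adjusted p = 2.15e-05), and it rose in shZfr (0.58 ± 0.14, adjusted p = 0.0116 and 0.57 ± 0.14, adjusted p = 0.00751). The other listed ABC transporter genes were split in shAdar2. By edgeR, Abca1 fell relative to shControl2 (−1.68 ± 0.18, adjusted p = 6.72e-05) and shControl1 (−0.61 ± 0.18, adjusted p = 0.0206). Abcg4 rose relative to shControl2 (0.45 ± 0.13, adjusted p = 0.0114 by edgeR) and shControl1 (0.60 ± 0.13, adjusted p = 0.00401). Stard3, an endosomal sterol carrier, rose in shAdar2 (0.91 ± 0.17, adjusted p = 0.00122 relative to shControl2 and 1.15 ± 0.17, adjusted p = 0.000611 relative to shControl1, by edgeR), and Vldlr, a lipoprotein receptor, fell (−1.76 ± 0.13, adjusted p = 1.14e-05 and −0.93 ± 0.13, adjusted p = 0.000502). Scarb1, the HDL receptor, fell in shZfr (−1.41 ± 0.24, adjusted p = 0.00215 relative to shControl2 and −1.39 ± 0.24, adjusted p = 0.00121 relative to shControl1, by edgeR).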

How the data were processed

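RNA was measured in 12 libraries from 10 biological samples. Per the file headers, the authors deposited RSEM expected counts and TPM values for each gene; the submitters' processing notes name the mm9 build, RSEM 1.2.30, DESeq2 1.20.0, STAR 2.5.4b, Trim Galore 0.4.5 and SAMtools 1.4. RSEM splits reads shared between near-identical genes. The posterior SD of a member's count, which measures the uncertainty left by this split, was at most 0.275% of the count (Scd1). The share of reads that were split was not measured. Here expected counts were rounded, the 3 technical libraries of shAdar2 replicate 1 were summed, genes were filtered with filterByExpr and scaled by TMM, and all 5 groups were fitted together with edgeR 4.0.16 (R 4.3.3). The quasi-likelihood F test was adjusted by Benjamini-Hochberg over all 14785 genes tested, and a gene was called at an adjusted p under 0.05. The SE of a log2 fold change was derived from its F value. The spread behind each SE and p-value was thus estimated over all 5 groups, the unusually alike shZfr pair included, and not from the 2 compared groups alone. With 2 samples per group, it covers the spread between these samples only. TPM values of the technical libraries were averaged.

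The members, roles, pathway lists and marker lists were chosen with earlier results of these data known, so a count is no independent evidence of direction. Values in each sample were given for members called in 1 direction against both controls by a knockdown, for members called between the controls, and for Srebf1 and Srebf2. Up to 4 genes per further pathway list were named, lowest p first, and Abca1 and Abcg4 were added beside Abcg1. Alternatives were DESeq2 1.42.0, its size factors, no filter, only the compared groups, a replicate block, Rn45s left out, each sample left out, single technical libraries and the mean of both controls. Libraries 1 and 3 alone, and the shZfr samples summed, were added after seeing the data. The edgeR test was tested on simulated data. Editing tables were not used here.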

Additional observations from a re-analysis of the deposited data

How the results depend on the processing

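The shAdar2 counts were within 1.5 times of their main values under each alternative run, apart from the 1 member higher than both controls, which became 2 with no filter on low counts, 2 with technical library 2 alone and 1 to 2 leaving out 1 sample. Members lower than both ranged from 10 to 18 over the left-out samples. The 2 members higher in shAdar1 than both controls became 4 by DESeq2, 4 with no filter, 1 with only the compared groups and 0 to 4 over left-out samples. The 2 members lower in shZfr than both became 1 with no filter, 1 with a replicate block, 6 with only the compared groups, 0 with the shZfr samples summed and 0 to 2 over left-out samples. Called members in shAdar1 against shControl1 (9) became 14 by DESeq2, 14 with no filter and 0 to 12 over left-out samples; against shControl2 (6) the left-out range was 2 to 7. In shZfr against shControl2 (11) the count became 23 with only the compared groups, 7 against the mean of both controls, 3 with the samples summed and 3 to 5 over left-out samples; against shControl1 (4) it was 7 by DESeq2, 7 with no filter, 13 with only the compared groups and 7 against the mean of both controls. Between the controls (14) the left-out range was 6 to 10. Why these counts moved was not tested.

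Against the mean of both controls, Insig2 in shAdar1 turned to 0.47 (it was −0.05 against shControl1) and Acly in shAdar2 to −0.048 (it was 0.56 against shControl2). Of the other single values, 3012 kept their side of the threshold, 218 lost a call and 103 gained one. A value called in neither fit was counted among the 3012 even where its sign changed. Over all tested genes, correlations of deviations between same-numbered samples ran from −0.12 (shControl1 with shAdar1) to 0.28 (shAdar1 with shAdar2). They do not settle whether replicate numbers paired the levels of the members. With the replicate block, 8, 19, 10, 6, 24, 4 and 14 members were called in shAdar1, shAdar2 and shZfr against their study controls, in the same knockdowns against the other control, and between controls, and 25 and 20 in shAdar2 against shAdar1 and shZfr. Where a sample was left out, the lone sample of its group was assumed to vary like the other groups. Other scalings moved the median of all genes by at most 0.06. With 2 samples per group, small differences are below detection.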
